A study of Mus musculus with 21 samples.

Results

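Of the 216790 peaks of open chromatin listed for CD138 cells of the mouse colon on chromosomes 1 to 19 and X, 6078 (2.80%) overlapped a peak of Myofibroblast by at least 1 bp and no peak of MRISC or CD34 SP. These 6078 regions are described here as the regions open only in CD138 and Myofibroblast. They were chosen by presence and absence in the peak lists themselves, so their presence in those lists and their absence from the others are the rule and not a finding. On the other side, 6093 Myofibroblast peaks, 3.40% of 179331, overlapped one of these regions.

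ATAC-seq, in which a transposase cuts and tags accessible DNA, was made on 4 stromal populations sorted from the colon of male C57BL/6 mice of 12 weeks, with 2 libraries for each. CD138 is the CD34-negative population that carries CD138, the cell-surface proteoglycan encoded by Sdc1, which plasma cells carry too. Myofibroblast, MRISC (stromal cells named by the study for their regulation by Map3k2) and CD34 SP (single positive for CD34) were the other populations, and all were gated as gp38-positive cells that lack CD45, Epcam and CD31, the surface proteins of blood, epithelial and endothelial cells. Any treatment of these mice is not given in the sources used here, and each population came as 1 list with 1 score for each peak, so the spread between libraries and the read depth are unknown. Transcripts came from 1 droplet library of sorted gp38+CD90+ stroma, from wild-type C57BL/6 colon of a female aged 12 weeks. It was taken at D3 of 2% DSS, a compound that damages the gut epithelium. The 12 bulk colon RNA samples were not analysed here.

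Myofibroblasts and smooth muscle cells share a contractile apparatus of smooth muscle actin, myosin and calcium-controlled kinases. Genes of that apparatus are classically switched on by serum response factor (SRF), which binds CArG boxes together with its coactivator myocardin, and by MEF2 factors. Open chromatin outside promoters often marks enhancers, and cells of related lineage tend to hold part of their enhancers in common. In the colon, contractile cells form the muscle layers and a thin sheath beneath the epithelium.

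The sequences of 9 of the regions are shown first. They are the 2 regions best placed by score in both lists (Otulin and Arid3a) and examples picked from gene lists described below. The examples are 3 at contractile genes, Itpr1 for the calcium channels of smooth muscle, 1 at a blood-cell gene and 2 at epithelial genes. They are not a typical sample of the regions, and the share of regions with a word is given below for several words. Each is a window of 200 bp centred on the CD138 peak, on the plus strand of GRCm38 (mm10), read from the RefSeq assembly. Where a peak is narrower than its window, as at Myh11, the window takes in flanking bases. Capitals mark matches, on either strand, to any of the 30 consensus words searched.
Cnn1 promoter, chr9:22099989-22100188: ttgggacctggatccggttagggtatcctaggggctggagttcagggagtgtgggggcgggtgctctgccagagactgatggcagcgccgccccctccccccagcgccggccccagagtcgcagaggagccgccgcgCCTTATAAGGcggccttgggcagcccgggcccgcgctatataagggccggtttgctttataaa
Myh11 intron, chr16:14287491-14287690: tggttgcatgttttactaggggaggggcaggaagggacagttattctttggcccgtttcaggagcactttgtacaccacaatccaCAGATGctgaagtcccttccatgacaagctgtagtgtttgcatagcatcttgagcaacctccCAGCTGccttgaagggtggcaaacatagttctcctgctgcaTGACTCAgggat
Acta2 intron, chr19:34252751-34252950: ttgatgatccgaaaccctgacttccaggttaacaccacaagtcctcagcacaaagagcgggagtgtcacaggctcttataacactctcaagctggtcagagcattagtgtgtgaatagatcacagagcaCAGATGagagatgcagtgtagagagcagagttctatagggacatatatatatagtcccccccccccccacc
Itpr1 intron, chr6:108537001-108537200: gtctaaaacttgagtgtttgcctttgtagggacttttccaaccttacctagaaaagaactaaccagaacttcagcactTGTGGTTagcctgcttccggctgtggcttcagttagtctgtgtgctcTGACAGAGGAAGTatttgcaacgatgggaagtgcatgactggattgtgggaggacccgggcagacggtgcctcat
Otulin intron, chr15:27596746-27596945: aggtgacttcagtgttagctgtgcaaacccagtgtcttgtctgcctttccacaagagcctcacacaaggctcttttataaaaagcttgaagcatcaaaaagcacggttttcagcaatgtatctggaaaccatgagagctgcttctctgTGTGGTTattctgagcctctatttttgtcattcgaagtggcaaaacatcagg
Arid3a intron, chr10:79940835-79941034: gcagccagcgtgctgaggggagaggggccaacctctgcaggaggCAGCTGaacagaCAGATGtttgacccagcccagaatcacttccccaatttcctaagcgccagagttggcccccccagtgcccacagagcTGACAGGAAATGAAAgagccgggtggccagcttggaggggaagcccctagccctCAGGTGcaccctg
Ikzf1 promoter, chr11:11685998-11686197: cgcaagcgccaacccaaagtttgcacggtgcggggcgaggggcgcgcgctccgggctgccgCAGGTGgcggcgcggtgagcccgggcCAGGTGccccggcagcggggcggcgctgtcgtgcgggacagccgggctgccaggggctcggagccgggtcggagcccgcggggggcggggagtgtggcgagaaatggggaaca
Vil1 intron, chr1:74434679-74434878: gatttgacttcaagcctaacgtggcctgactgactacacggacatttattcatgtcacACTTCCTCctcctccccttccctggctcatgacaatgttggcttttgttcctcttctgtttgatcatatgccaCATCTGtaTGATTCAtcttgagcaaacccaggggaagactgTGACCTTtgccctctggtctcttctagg
Epcam promoter, chr17:87635804-87636003: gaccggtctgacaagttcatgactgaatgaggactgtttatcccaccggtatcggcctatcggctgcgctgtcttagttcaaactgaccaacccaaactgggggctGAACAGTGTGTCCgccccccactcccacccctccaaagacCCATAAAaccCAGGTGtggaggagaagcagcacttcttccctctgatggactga
The capitals in the Cnn1 window are a CArG box. The Itpr1 window holds a RUNX word (TGTGGTT), a MEIS word (TGACAG) and a word bound by PU.1-type ETS factors of blood cells (GAGGAAGT), and the Vil1 window holds the last of these on the minus strand together with an AP-1 word (TGANTCA). The Ikzf1 window holds the E-box CACCTG at 2 places, and the Acta2 window holds only the E-box CATCTG, with no CArG box in these 200 bp. A match is a description of the letters and not a measured binding site.

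The regions were short peaks of middling score. Their median width was 188 bp, against 174 bp over all CD138 peaks, and together they covered 1.31 Mb. When the scores of each list were ranked from 0 (lowest) to 100 (highest), the median region stood at percentile 52.5 in the CD138 list and at 52.9 in the Myofibroblast list. The rank in one list said little about the rank in the other, with Pearson's r of 0.048 over the 6078 regions of these 2 lists. In both lists at once, 195 regions stood in the highest 20% of the scores, 135 in the lowest 20% and 1765 (29.0%) in the upper 50 percent.

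The CD138 list shared more peaks with CD34 SP alone or MRISC alone than with Myofibroblast alone. Peaks shared with CD34 SP only numbered 10576 and with MRISC only 7207, while 126532 were in the CD138 list alone and 38243 in all 4 lists. The regions took 2.26% of the CD138 peaks in the lowest 20% of scores, 3.82% in the 20% just under the highest and 1.82% in the highest.

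**Figure D1:**
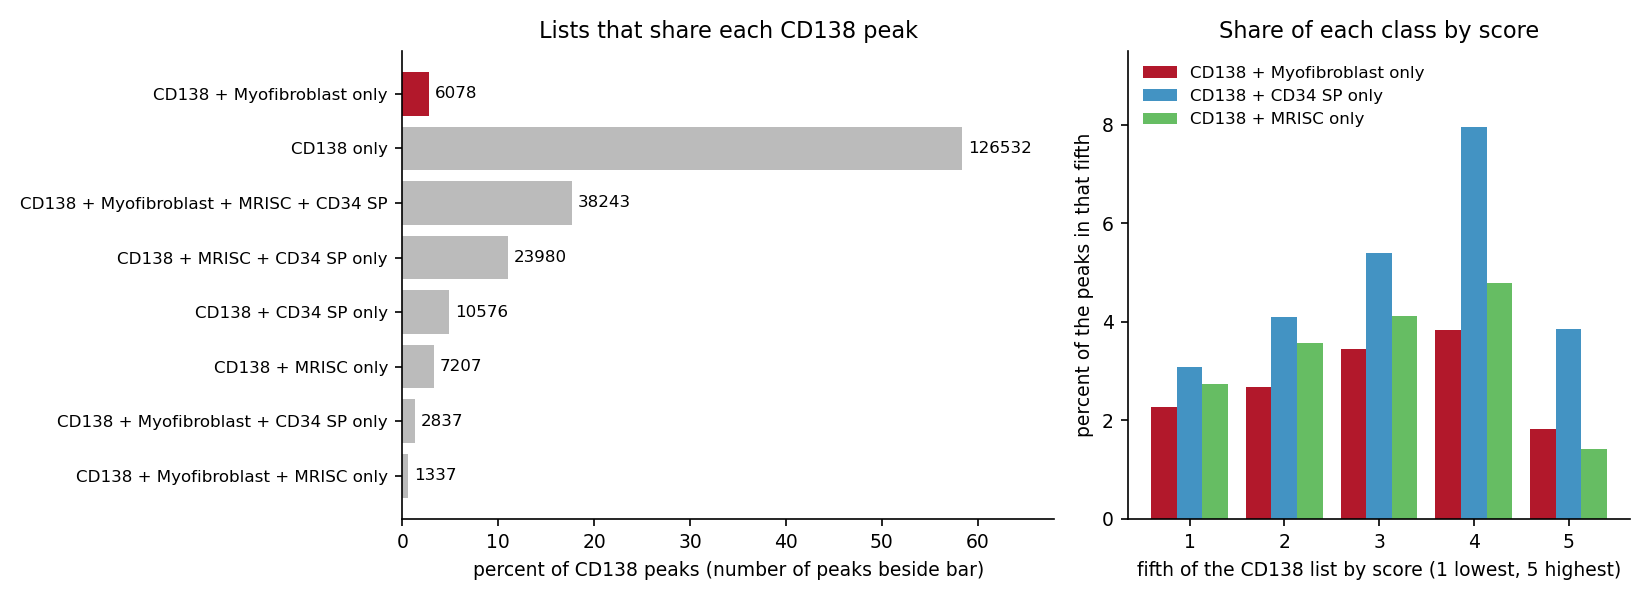
Left, the percent of the 216790 CD138 peaks (horizontal axis, number beside each bar) by the other lists that share them, with the 6078 regions shared with Myofibroblast only in red. Right, the percent of the peaks in each 20% of the CD138 list by score, from lowest to highest, that fell in 3 of these classes; the regions shared with Myofibroblast only reach 3.82% in group 4 and 1.82% in the highest.

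The overlap that makes a region a member was often partial. The median overlap was 93 bp, which was 55% of the CD138 peak and 53.5% of the Myofibroblast peak. Of the 6078 regions, 271 overlapped by at most 10 bp, 21 of these by 1 bp, and those 271 had a median width of 136 bp and a median CD138 score percentile of 35.8. Just outside the rule, 255 peaks found in CD138 alone lay less than 10 bp from a Myofibroblast peak, with a median width of 134 bp and a median percentile of 33.6. On the side of the excluded lists, 51 regions lay less than 10 bp from an MRISC or CD34 SP peak and 1269 less than 500 bp, and the median distance to the nearer of these was 2306 bp. When 50% of both peaks had to overlap, 2035 regions remained.

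Most regions lay far from transcription starts. Within 1 kb of a protein-coding start were 5.64% of the regions (95% Wilson interval 5.09 to 6.25%, n = 6078), against 6.52% (6.07 to 7.01%) of the peaks shared by CD138 and CD34 SP only, 6.65% (6.09 to 7.24%) of those shared by CD138 and MRISC only and 10.2% of all CD138 peaks. Such intervals cover counting error only, and regions of a list are not replicates of a population. Introns held 45.5% of the regions, exons 4.59% and the space between genes 44.3%, and the median distance to a start was 27650.5 bp. Of the 343 regions at promoters, those of Trpv2, a calcium-permeable channel, and Mpnd were among the 10 regions best placed in both lists.

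Those 10 regions, at most 1 for each nearest gene, had a lower percentile of 89.1 to 92.6 in the list where they ranked worse. The best was the 861 bp peak chr15:27596416-27597276 in an intron of Otulin, which encodes a deubiquitinase of linear ubiquitin chains, at percentile 93.0 in CD138 and 92.6 in Myofibroblast. An intronic peak of Arid3a, a transcription factor gene known from B cells, was at chr10:79940656-79941214, at percentiles 94.2 and 91.7. An intronic peak of Itpr1, the inositol trisphosphate receptor that releases stored calcium, was at chr6:108536930-108537272, at 89.1 and 93.2. The other regions of the 10 were nearest to Adgrl2, Rims1, Gdi2, Ehd1 and Ttbk2. Some of the 10 lay close to peaks of the excluded lists. The region nearest to Ehd1 was 9 bp from an MRISC peak. That of Trpv2 was 64 bp from a CD34 SP peak and 157 bp from an MRISC peak.

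On chromosome X, 29 of the regions were found, 0.477% (0.332 to 0.684%), against 1.49% of all CD138 peaks, 1.68% of the peaks shared by CD138 and CD34 SP only and 0.777% (0.599 to 1.01%) of those shared by CD138 and MRISC only. On the other 19 chromosomes the regions were between 2.49% (chromosome 17) and 3.38% (chromosome 19) of the CD138 peaks. Only 12.1% of the regions lay within 10 kb of another.

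Consensus words of transcription factors were searched on both strands in 200 bp centred on each peak, which for narrower peaks includes flanking bases. The words of contractile gene regulation were present in few regions but in a larger share than in the compared classes. A CArG box, the site of SRF, was in 1.68% of the regions (1.38 to 2.03%), against 1.25% (1.05 to 1.48%) with CD34 SP, 1.12% (0.905 to 1.39%) with MRISC and 1.13% (1.09 to 1.18%) of all CD138 peaks. A MEF2 site was in 1.04% (0.811 to 1.32%), against 0.511% (0.392 to 0.666%), 0.541% (0.396 to 0.739%) and 0.489% (0.460 to 0.519%) in the same order. The intervals of the MEF2 shares did not overlap, while that of the CArG share overlapped those with CD34 SP and, narrowly, with MRISC.

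AP-1 sites (TGANTCA), bound by FOS and JUN factors, were in 8.88% of the regions (8.19 to 9.63%). They were in 12.7% (12.0 to 13.3%) of the peaks shared by CD138 and CD34 SP only, in 10.1% with MRISC, in 20.2% (19.6 to 20.7%) of those shared by MRISC and CD34 SP only and in 9.91% of all CD138 peaks. The E-box CAGCTG, bound by several helix-loop-helix factors, was in 13.8% of the regions (12.9 to 14.6%), against 21.9% with CD34 SP, 16.0% with MRISC and 14.6% of all CD138 peaks. The RUNX word was in 6.84% (6.24 to 7.51%), against 7.32% (6.84 to 7.83%) with CD34 SP and 5.18% of all CD138 peaks. The AP-1 interval overlapped only that of the peaks shared with MRISC (9.45 to 10.8%), the CAGCTG interval only that of all CD138 peaks (14.4 to 14.7%), and the RUNX interval only that of the peaks shared with CD34 SP.

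After the gene results below had been seen, 3 words of blood-cell and epithelial-mesenchymal factors were added to the search. The PU.1-type word GAGGAAGT was in 4.05% of the regions (3.58 to 4.57%), against 2.29% (2.02 to 2.59%) with CD34 SP, 2.75% (2.39 to 3.15%) with MRISC and 2.15% of all CD138 peaks. The joint word of ETS and IRF factors, GGAA and GAAA with 2 bases between them, was in 3.37% (2.95 to 3.86%), against 2.48%, 2.29% and 2.19%. The E-box CACCTG, bound by E proteins and by ZEB and SNAI repressors, was in 17% (16.1 to 18%), against 11.6%, 14.6% and 13.3%. Mean G and C content was close in these classes, at 48.8% in the regions, 47.4% with CD34 SP, 49.2% with MRISC and 48.3% over all CD138 peaks.

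**Figure D2:**
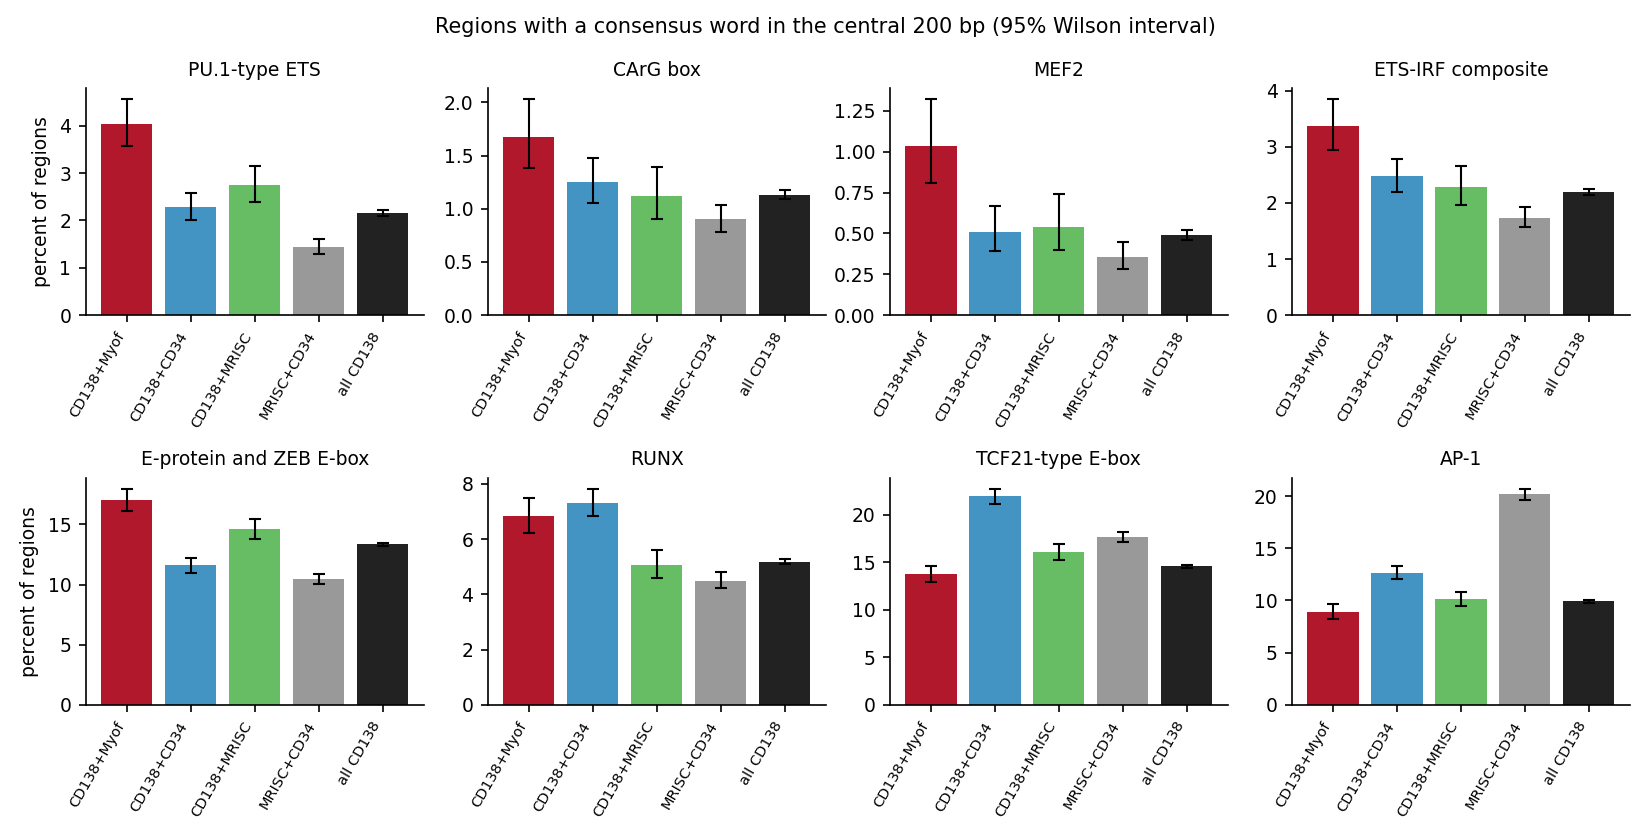
Percent of regions (vertical axis, separate scale in each panel, from 0) that hold each of 8 consensus words in their central 200 bp, with 95% Wilson intervals, for the regions of CD138 and Myofibroblast only (red), the 3 compared classes and all CD138 peaks. The red bar is the highest for the PU.1-type, CArG, MEF2, ETS-IRF and CACCTG words and the lowest for CAGCTG (TCF21-type E-box) and AP-1.

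Genes were linked to regions by a window of the gene body with 10 kb on both sides. Of 21728 protein-coding genes, 3648 (16.8%) had at least 1 region, 807 had at least 2 and 251 at least 3. With 50 kb on both sides it would be 7219 genes (33.2%). Peaks shared by CD138 and CD34 SP only were at 5476 genes, those shared by CD138 and MRISC only at 4335 and those of MRISC and CD34 SP only at 8701. Long genes have more room, as the windows of genes with a region had a median of 68 kb, against 37.4 kb over all genes. No gene list has more than 20 genes, so the counts below are small, and no test was made on them.

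Of 20 smooth muscle contractile genes, 10 had a region, against the 16.8% of all genes, with a median window of 44.9 kb. Mylk, the kinase that switches on smooth muscle myosin, had 5 regions, and Myh11, the smooth muscle myosin heavy chain, had 3. Actg2, the enteric smooth muscle actin, had 2, and Acta2, Cnn1, Des, Lmod1, Cald1, Pgm5 and Myocd had 1 each. In the same 20 genes, peaks shared by CD138 and CD34 SP only were also found at 10 genes, those shared with MRISC only at 8 and those of MRISC and CD34 SP only at 14. Over all genes these 3 classes were at 25.2%, 19.95% and 40.0%. With 50% of the CD138 peak overlapped 6 contractile genes had a region, and with 50% of both peaks 4 had one.

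The promoter region of Cnn1, the actin-binding protein calponin, was chr9:22099945-22100233, at percentile 81.3 in CD138 and 93.4 in Myofibroblast. It overlapped the Myofibroblast peak by 273 of its 289 bp. Within 1 kb of the Cnn1 start MRISC and CD34 SP each had another peak, at percentiles 71.9 and 63, and the nearer of their peaks lay 506 bp from the region. The intronic regions of Myh11 at chr16:14287493-14287688 and chr16:14289561-14289755 lay wholly inside Myofibroblast peaks and stood at 55.1 and 50.1 in CD138, and at 89.0 and 92.4 in Myofibroblast. The region in an Acta2 intron, chr19:34252744-34252958, was 2739 bp from the annotated start of the smooth muscle actin gene and stood at 64.9 in CD138 and 80.8 in Myofibroblast. In Lmod1, which nucleates actin filaments, the region chr1:135359081-135359324 was at 77.7 and 90.8. By contrast the Cald1 region met its Myofibroblast peak by 1 bp, and that of Actg2 800 bp before its start by 7 bp.

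The starts of the best known contractile genes were open in all 4 populations. Within 1 kb of the starts of Acta2, Myh11 and Tagln each of the 4 lists had a peak, with a best score percentile of 88.3 to 94.7 in CD138, 97.1 to 98.0 in Myofibroblast, 87.7 to 92.0 in MRISC and 87.9 to 92.9 in CD34 SP. At Actg2 the best percentile was 79.0 in CD138 and 95.3 in Myofibroblast, against no peak in MRISC and 30.1 in CD34 SP.

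Of 19 smooth muscle and mesenchymal transcription factors, 8 had a region, against the 16.8% of all genes. Peaks shared by CD138 and CD34 SP only were at 13 of the 19, those shared by CD138 and MRISC only at 4 and those of MRISC and CD34 SP only at 15. The shares over all genes were 25.2%, 19.95% and 40.0% in that order. With 50% of both peaks overlapped 5 factors had a region, and with peaks above the median score of each list 4 did. Mef2c and Runx1 had 3 each, Mrtfa, an SRF coactivator, had 2, and Srf, Myocd, Tead1, Runx2 and Sox6 had 1 each. The best of Mef2c was chr13:83565823-83566117 in an intron, at 84.4 in CD138 and 83.9 in Myofibroblast. The best of Runx1, a factor of blood and mesenchyme, was its promoter region chr16:92825839-92826427, at 92.8 and 76.9.

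Of 15 genes of cGMP signalling, calcium release and ion channels in smooth muscle, 7 had 26 regions in all, in long windows with a median of 358 kb. That is 46.7% of the genes, against the 16.8% of all genes. Itpr1 had 7, Kcnma1, the large-conductance potassium channel that relaxes smooth muscle, had 6, Prkg1, the cGMP-dependent kinase, had 5, and Cacna1c, the L-type calcium channel, had 4. The intronic Cacna1c regions chr6:118731990-118732262 and chr6:119085764-119086168 lay wholly inside Myofibroblast peaks, at 77.6 and 72.2 in CD138 and at 89.9 and 90.3 in Myofibroblast. In Kcnma1 the region chr14:23931677-23932181 was at 71.3 and 84.9. Ednrb, the endothelin receptor B, had 2, and Pde5a, which breaks down cGMP, and Ryr2, a calcium release channel, had 1 each. Per 100 kb of window this list had 0.470 regions, against 0.324 over all genes. A peak of CD138 and CD34 SP only was at 12 of its 15 genes, against 25.2% of all genes.

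Of 20 integrin and focal adhesion genes, 8 had a region (40%, against the 16.8% of all genes). Their windows had a median of 122 kb, with 0.408 regions per 100 kb, against 0.324 over all genes. Peaks shared by CD138 and CD34 SP only were at 14 of the 20, against 25.2% of all genes. Those shared by CD138 and MRISC only were at 12, against 19.95%, and those of MRISC and CD34 SP only at 17, against 40.0%. These classes are at more genes, so the lower count of 8 does not by itself show a shortage of regions. With 50% of both peaks overlapped, 2 of the 20 had a region. Itga1, the collagen-binding integrin alpha 1, and Itga9 had 3 each, and Lpp, an adaptor of focal adhesions, had 2. Among the 7 BMP ligand genes Bmp5 had 2 intronic regions and the others had 0, while 6 of the 7 had a peak shared by CD138 and CD34 SP only, against 25.2% of all genes. BMP ligand genes with a region of CD138 and Myofibroblast only were 5 of 7 with windows of 50 kb. They were 4 by the nearest start and 3 with peaks above the median score of each list. Wnt ligand genes had 4 of 11 (Wnt2b, Wnt3, Wnt5b and Wnt9a), BMP and Wnt antagonists and R-spondins 4 of 16, TGF-beta pathway genes 4 of 15 and hedgehog response genes 3 of 9, shares of 25% to 36.4% against the 16.8% of all genes. Per 100 kb of window these lists had 0.697, 0.296, 0.229 and 0.480 regions in the same order, against 0.324 over all genes. Crypt-top fibroblast genes had 7 of 16 (43.75%, against the 16.8% of all genes), with 2 regions each at Bmp5 and at Nrg1, the growth factor neuregulin 1. Per 100 kb of window that list had 0.329 regions, near the 0.324 over all genes. Peaks shared by CD138 and CD34 SP only were at 13 of the 16, against 25.2% of all genes. With 50% of both peaks overlapped, 2 of the 16 had a region.

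In 16 fibrillar matrix genes Col5a1 had 2 regions, Fbn1 had 1 and the others had 0, which is 12.5% of the genes and near the 16.8% of all genes. Peaks of MRISC and CD34 SP only were at all 16, 111 in number, against the 40.0% of all genes with such a peak. The CD34+CD81+ fibroblast list had 1 of 12 genes, Sfrp1, a Wnt antagonist. Lamina propria fibroblast genes had 4 of 11, but 9 of their 13 regions fell in the annotated Fgfr2 model, whose window of 2981 kb spans other genes. Basement membrane genes had 7 of 17 (41.2%, against the 16.8% of all genes), with Lamc1, the laminin gamma 1 chain, at 2 regions. Their windows were long, with a median of 125 kb. Per 100 kb of window they had 0.297 regions, against 0.324 over all genes, so by length they held no more regions than genes at large. Peaks of CD138 and CD34 SP only were at 11 of the 17, those of CD138 and MRISC only at 9 and those of MRISC and CD34 SP only at 14. Over all genes the shares were 25.2%, 19.95% and 40.0% in that order. With 50% of both peaks overlapped, 0 of the 17 had a region.

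Genes of cells that the sort was meant to leave out also had regions. Of 12 epithelial markers, 7 had 9 regions, 58.3% against the 16.8% of all genes and in short windows with a median of 28.8 kb. Peaks shared by CD138 and CD34 SP only, or by CD138 and MRISC only, were found at 0 of the 12, and peaks of MRISC and CD34 SP only at 2. Over all genes the shares of these classes were 25.2%, 19.95% and 40.0%. In total these 12 genes had 64 peaks in CD138, 64 in Myofibroblast, 48 in MRISC and 34 in CD34 SP.

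The promoter region of Epcam, the adhesion protein used to sort out epithelial cells, was chr17:87635688-87636119, at percentile 77.3 in CD138 and 78.6 in Myofibroblast. Its neighbour peaks in the excluded lists were 280 bp away or more. Within 1 kb of the Epcam start MRISC and CD34 SP each had a peak, at best percentiles 70.25 and 69.6. The Epcam promoter as a whole was thus open in these populations too, and only the region itself was absent from their lists. Vil1, the microvillus protein villin, had the intronic regions chr1:74434619-74434938, at 84.5 and 75, and chr1:74415217-74415362, at 47.3 and 42.5. Elf3, an epithelial ETS factor, had 2 regions, of which that at its promoter, chr1:135258468-135258608, was at 45.0 and 88.8. The claudin genes Cldn3 and Cldn7, Krt19 (keratin 19) and Cdh1 (E-cadherin) had 1 each.

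Of 10 plasma cell markers, 5 had 6 regions (50% of the genes, against the 16.8% of all genes). Peaks shared by CD138 and CD34 SP only were at 2 of the 10, against 25.2% of all genes. Those shared by CD138 and MRISC only were at 4, against 19.95%, and those of MRISC and CD34 SP only at 5, against 40.0%. Prdm1, the regulator of plasma cell fate, had 2 regions, and Mzb1, Cd38, Slamf7 and Pou2af1 had 1 each. The region at the Cd38 promoter, chr5:43868720-43869252, was at percentile 80.1 in CD138 and 34.8 in Myofibroblast, and the Pou2af1 region, chr9:51221796-51222315, was at 80.7 and 57.9 with 49 bp of overlap. Total peaks at the 10 genes numbered 110 in CD138, 69 in Myofibroblast, 44 in MRISC and 49 in CD34 SP. With 50% of the CD138 peak overlapped 2 of the 10 had a region, and with 50% of both peaks 1 had one.

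Of 12 immune cell markers, 2 had 6 regions, 16.7% and so at the share of all genes. Ikzf1, the lymphoid transcription factor Ikaros, had 4 and Coro1a, an actin regulator of white blood cells, had 2. The Ikzf1 promoter region chr11:11685951-11686245 was at 73.1 in CD138 and 65.3 in Myofibroblast, and the intronic region chr11:11710553-11710824 was at 62.3 and 88.2. Ptprc, which encodes CD45, had no region, but its start had a CD138 peak at percentile 86.3, against no peak in Myofibroblast and CD34 SP and 1 at percentile 1.16 in MRISC. Pecam1, which encodes CD31, had 2 regions. The part of other cell types in the sorted populations was not tested.

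Lists of other cell types were small, with 5 to 10 genes each. Mesothelium markers had a region at 3 of 6, endothelial markers 3 of 10, pericyte markers 3 of 8, enteric glia markers 2 of 7 (Sox10 and Erbb3), enteric neuron markers 2 of 7 and interstitial cell of Cajal markers 1 of 5 (Ano1, with 3), shares of 20% to 50% against the 16.8% of all genes. Long neuronal adhesion genes had 13 of 15, in windows with a median of 1570 kb and at 0.103 regions per 100 kb.

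**Figure D3:**
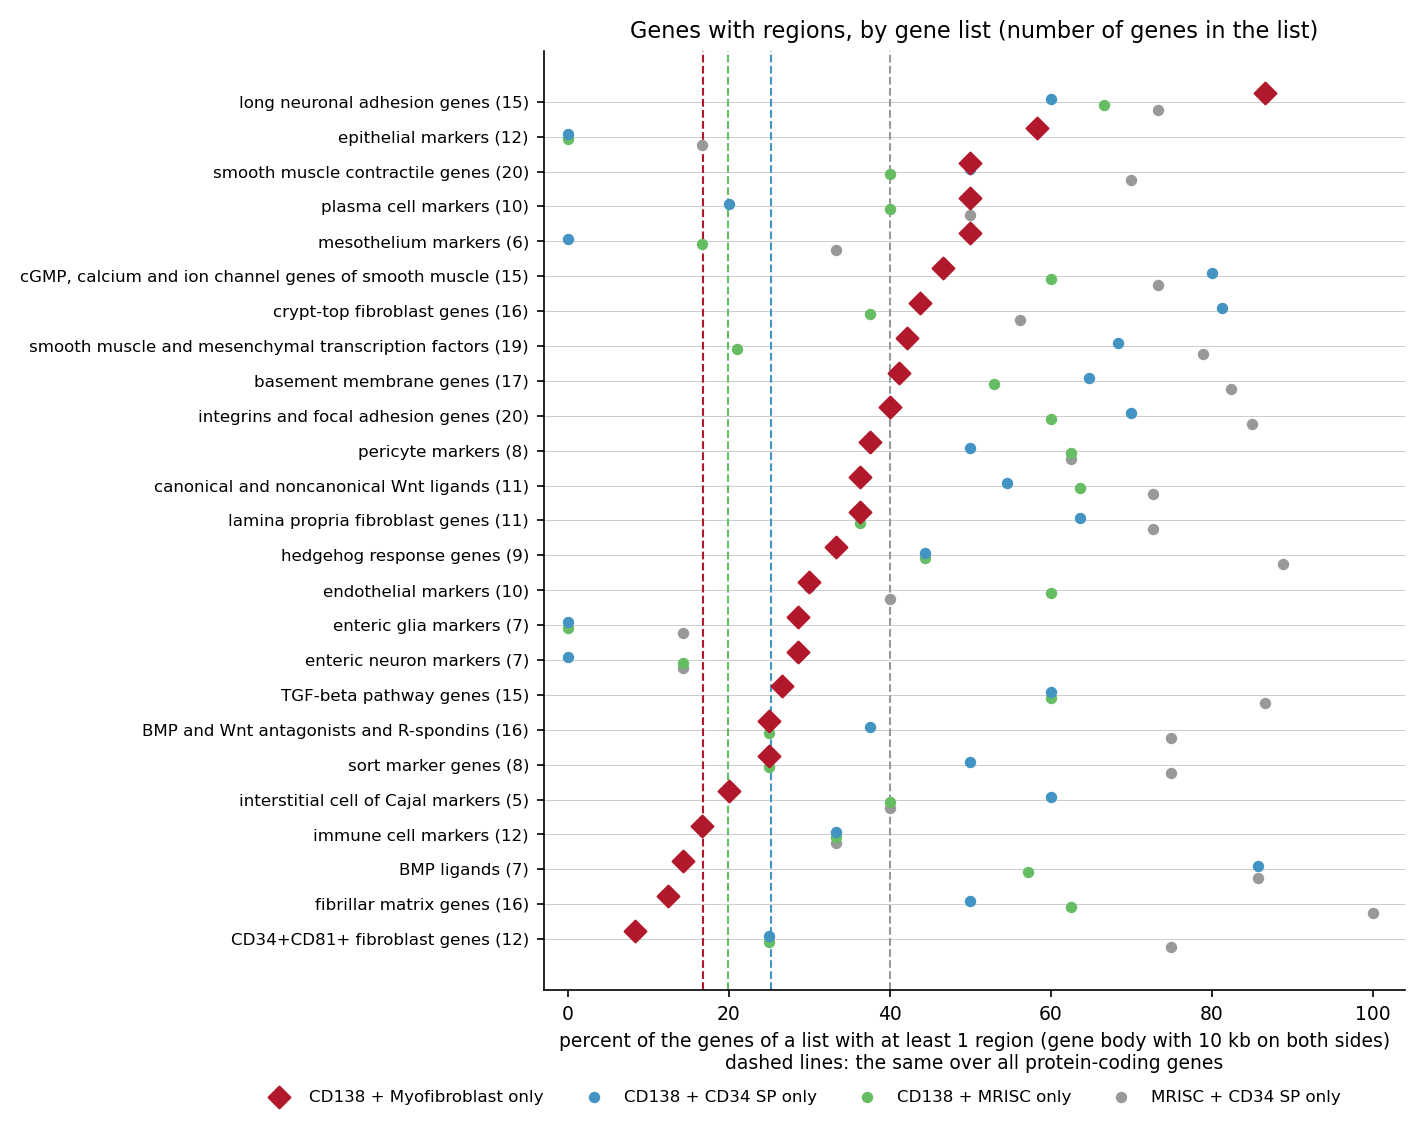
Percent of the genes of each list (rows, number of genes in parentheses) with at least 1 region in the gene body with 10 kb on both sides, for the regions of CD138 and Myofibroblast only (red diamonds) and 3 other classes (circles), with dashed lines at the share over all protein-coding genes. The red diamonds lie right of all circles for the long neuronal, epithelial (58.3%), mesothelium, glia and neuron lists, and left of all circles for others such as the BMP ligand, integrin, basement membrane and fibrillar matrix (12.5%) lists.

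Genes with the most regions were long ones. The predicted gene model Gm20388 spans 4455 kb with its flanks and had 24, and Fgfr2 had 9, both with many peaks of every class. Itpr1, Tcf4, Tmem132d, Nav2, Zfhx3 and Gm37240 had 7 each. Rcsd1, Itpk1, Dysf, Etv6, Msi2 and Agap1 were among those with 6 each. Per length, among genes with at least 4 regions, the densest was Neurl3, a ubiquitin ligase gene, with 4 regions in a window of 30.1 kb, or 13.3 per 100 kb. Cass4, a focal adhesion scaffold, had 5 (8.34 per 100 kb), Arid3a 4 (8.34), Rcsd1, a regulator of actin capping, 6 (7.21) and Sla, an adaptor of lymphocyte receptor signalling, 4 (5.63). Cacna1h, a T-type calcium channel, Ehd4, Cytip, Bcl11a, a lymphoid and neuronal transcription factor, and Lims1, a focal adhesion protein, followed.

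In the droplet library, 11376 of 11484 barcodes were kept, with a median of 6052 UMIs per cell, and formed 11 clusters, of which 1 of 24 cells was epithelium-like and 1 of 245 cells, left unnamed, was led by Jchain and other immunoglobulin genes. A cluster of 1114 cells raised at least 2-fold in 9 of 10 fixed myofibroblast and smooth muscle markers is called M here. In it, 3 of the fixed pericyte markers were raised too against all other cells. A cluster of 1554 cells with high Sdc1 and low Cd34 is called S (295 and 135 CPM, UMIs scaled to a common library total), and 3 clusters with high Cd34, 6195 cells in all, are called C. M had 93.1 CPM of Cd34, against 652 in C. Of the 8 genes in the separate list of pericyte markers used above, 5 were at least 2-fold higher in M than in C. The library is 1 mouse under DSS, of the other sex than the sorted mice, so each level is a pooled CPM with an exact Poisson interval for counting error, and no test between cell groups was possible.

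Genes with regions were more often higher in M than genes at large. Of 1701 genes with at least 1 region and at least 10 CPM in M or C, 261 (15.3%, interval 13.7 to 17.1%) were at least 2-fold higher in M than in C, against 640 of 8497 genes tested (7.53%). With at least 2 regions the share was 103 of 412 genes (25%, 21.1 to 29.4%), and with at least 3 it was 55 of 142 (38.7%, 31.1 to 46.9%). Lower in M by 2-fold were 5.94%, 5.83% and 5.63% of the same genes, against 6.08% of all.

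The other classes did not reach such shares. All 3 of them exclude Myofibroblast peaks by rule, and no other class with Myofibroblast peaks was examined. The comparison therefore cannot tell whether the higher share is particular to these regions. With at least 3 regions, 14.9% (12.2 to 18.1%) of the genes for CD138 and CD34 SP, 14.6% (10.8 to 19.5%) for CD138 and MRISC and 8.76% (7.47 to 10.2%) for MRISC and CD34 SP were higher in M. With windows of at most 100 kb only, an alternative added after the data had been seen, 13.7% of genes with a region were higher in M, against 6.50% of all such genes. Higher in S than in C were 112 of 1630 genes with a region (6.87%, 5.74 to 8.20%), against 4.14% of all genes tested. The share was close for CD138 and CD34 SP, at 6.53% (5.71 to 7.46%), and was 4.33% (3.55 to 5.27%) for CD138 and MRISC. With at least 3 regions, 19 of 118 genes (16.1%, 10.6 to 23.8%) were higher in S, against 9.26% (7.11 to 12%) for CD138 and CD34 SP, with overlapping intervals. Lower in S were 3.07% of genes with a region, against 2.66% of all.

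**Figure D4:**
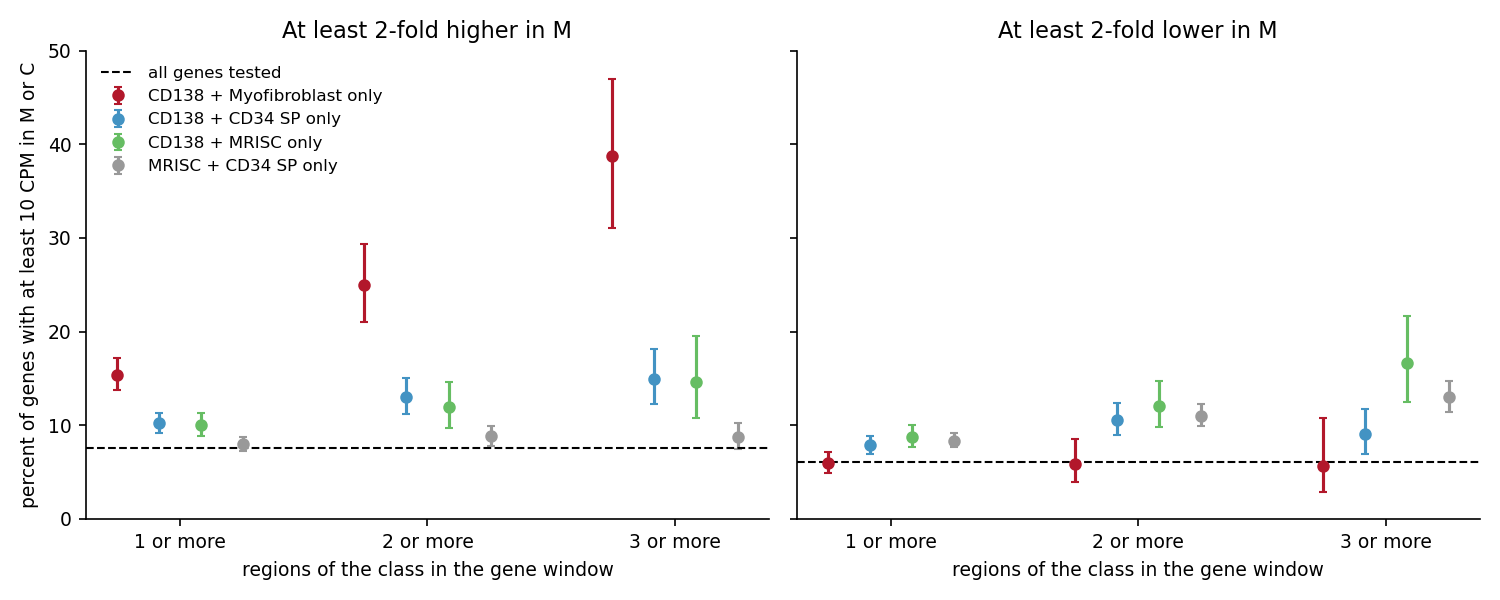
Percent of genes with at least 10 CPM in M or C that were at least 2-fold higher (left) or lower (right) in M than in C, by the number of regions in the gene window, with 95% Wilson intervals, for the regions of CD138 and Myofibroblast only (red) and 3 other classes; dashed lines show all genes tested (7.53% and 6.08%). The red points stand at 15.3%, 25% and 38.7% on the left and at 5.94%, 5.83% and 5.63% on the right.

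All 20 contractile genes were at least 2-fold higher in M, the 10 without a region included. Several of them, such as Acta2, Myh11, Actg2, Cnn1 and Mylk, were among the markers that named M, so their direction was largely fixed by that choice and their levels are a description. Acta2 had 9882 CPM in M, 459 in S and 159 in C. Myh11 had 1479 in M, 15.9 in S and 11.6 in C, which is 128-fold between M and C. Cnn1 had 1213 in M, 19.6 in S and 13.2 in C, and Mylk had 2549, 149 and 59.0. Levels in S stood between those of M and C for each of these, and for Mylk S was 2.52-fold above C.

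Of the 15 channel and cGMP genes, 8 were higher in M, 0 were lower and 6 were under 10 CPM in each group. Kcnma1 had 58.5 CPM (53.1 to 64.2) in M, 0.708 in S and 1.56 in C, Cacna1c 16.0, 2.48 and 1.13, Prkg1 21.2, 4.34 and 3.12, and Itpr1 82.0, 37.3 and 26.4. Mef2c had 81.9 in M, 14.3 in S and 8.45 in C, and Myocd had 43.1, 0.796 and 1.21. Kcnma1 and Myocd thus stood lower in S than in C, at levels near 1 CPM, while the others stood between M and C in S. Itga1 had 198 in M, 46.6 in S and 22.6 in C, and Itga4 had 48.8, 2.74 and 1.37.

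Among genes with at least 3 regions, the 10 with the highest ratio of M to C were Myh11, Dysf, Mylk, Kcnma1, Cobll1, Sntg2, Mrvi1, Ldb3, Cacna1h and P3h2. Dysf, the membrane repair protein dysferlin, had 11.4 CPM (9.10 to 14.0) in M, 0.796 in S and 0.215 in C. Mrvi1, which ties cGMP-dependent kinase to the inositol trisphosphate receptor, had 75.5 in M, 20.9 in S and 2.72 in C. Ldb3, a Z-disc protein of muscle, had 18.8, 0.531 and 0.700. The 8 genes lower in M were Opcml, Coro2b, Slit3, Ext1, Elmo1, Ptprd, Itpr2 and Slc39a11. Slit3, a secreted guidance ligand, had 26.8 CPM in M, 31.3 in S and 97.2 in C, and Opcml, a cell adhesion protein, had 5.29, 7.70 and 38.8.

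**Figure D5:**
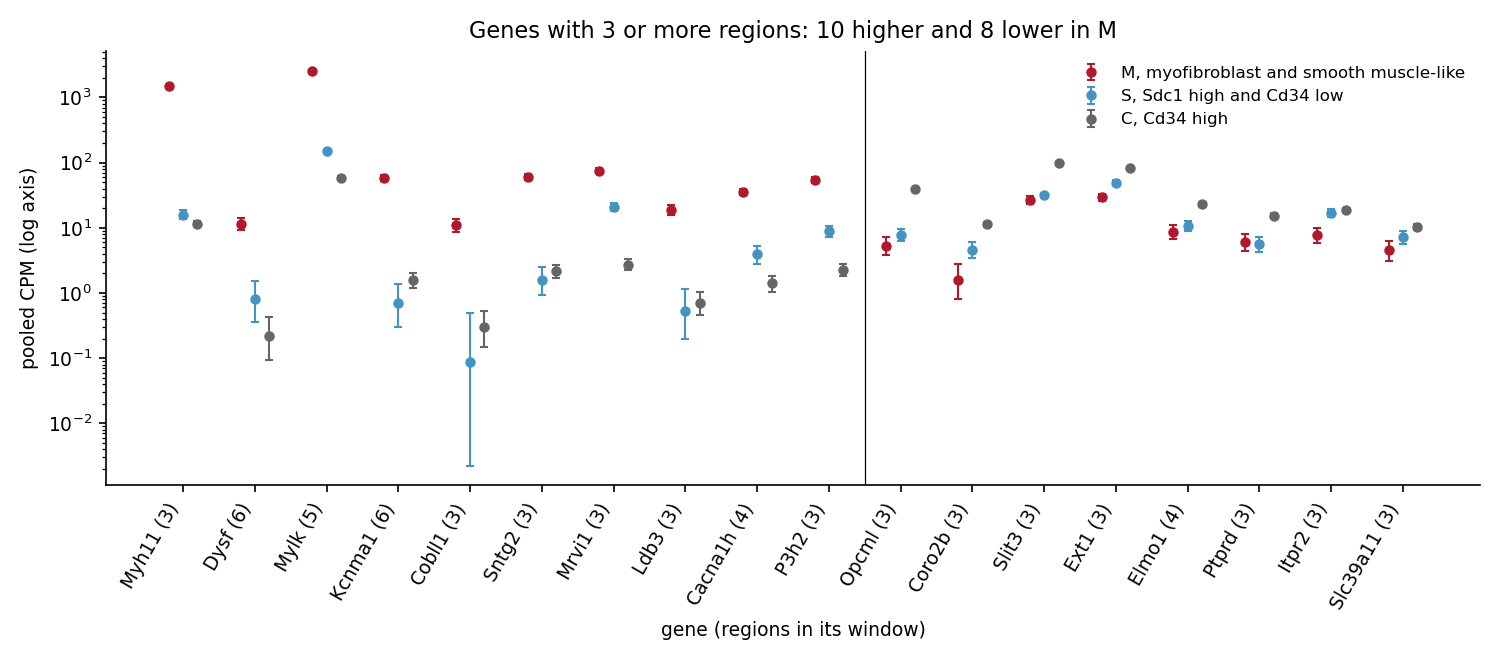
Pooled CPM (log axis) with exact 95% Poisson intervals in M (red), S (blue) and C (grey) for the 18 genes with at least 3 regions (number in parentheses) that had the highest ratios of M to C (left of the line) or were lower in M (right). Myh11 stands at 1479 CPM in M and 11.6 in C, and Opcml at 5.29 in M and 38.8 in C.

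Many genes with regions had few transcripts in these cells, though a smaller share than of all genes. Of 3641 genes with a region that the matrix holds, 1887 (51.8%) were under 10 CPM in M, S and C alike, against 59.7% of all genes, 40.8% for CD138 and CD34 SP, 47.2% for CD138 and MRISC and 41.5% for MRISC and CD34 SP. All 12 epithelial markers were under 10 CPM in each group, with a summed level of 17.1 CPM in M, 15.5 in S and 13.9 in C. Clusters raised in at least 3 fixed markers of epithelium, immune or plasma cells were kept out of S and C, and M was named by contractile markers. Low levels of such markers were thus largely fixed by the grouping and are a description. Over all kept cells Epcam had 13.4 CPM. Epcam had 1.06 CPM (0.457 to 2.08) in M, 1.42 in S and 1.02 in C, and Vil1 had 0 UMIs in M, 0.177 CPM in S and 0.0807 in C.

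Of the immune markers 11 of 12 were under 10 CPM in each group, and 7, Ptprc, Cd3e and Cd79a among them, had 0 UMIs in M. Ikzf1 had 0 UMIs in M, 0.0885 CPM in S and 0.0269 in C, which for M allows up to 0.488 CPM. Of the plasma cell markers 7 of 10 were under 10 CPM in each group. Xbp1, a secretory stress factor that many cell types express, had 211 CPM in M, 360 in S and 324 in C. Prdm1 had 32.5, 102 and 27.3 CPM, and Jchain, the joining chain of secreted antibodies, had 14.4, 29.2 and 28.2. The grouping described above bears on the immune and plasma cell markers too, and over all kept cells Jchain had 96.6 CPM. Among the densest genes, Sla, Cytip, Cass4 and Bcl11a were under 1 CPM in M, S and C, whereas Neurl3 had 35.0 CPM in M, 10.7 in S and 3.90 in C, Rcsd1 55.5, 32.8 and 11, Ehd4 61.6, 10.0 and 10.5, and Lims1 266, 75.5 and 64.3.

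Regions were then divided by the gene with the nearest start. For 526 regions (8.65%) that gene was higher in M, for 218 (3.59%) lower, for 2309 (38.0%) neither and for 3019 (49.7%) under 10 CPM in each group. MEF2 sites were in 2.09% (1.17 to 3.71%) of the regions at genes higher in M, against 1.06% (0.752 to 1.49%) at genes under 10 CPM, and CArG boxes were in 2.28% (1.31 to 3.94%), against 1.59% (1.20 to 2.10%). The PU.1-type word was in 2.85% (1.74 to 4.65%), against 3.97% (3.33 to 4.73%). All 3 pairs of intervals overlapped. Where the nearest gene was neither, the shares were 0.780% (0.494 to 1.23%) for MEF2, 1.73% (1.27 to 2.35%) for CArG and 4.55% (3.77 to 5.48%) for the PU.1-type word. No test was made between these groups, and an overlap of intervals does not show that their shares are alike.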

How the data were processed

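ATAC-seq peak lists of 4 sorted populations of mouse colon and 1 droplet single-cell library were used. The score of each peak is the authors' deposited value. Its scale, the peak caller and the way 2 libraries became 1 list were not given in the sources used here, so read depth is unknown. Per the submitters' processing notes the tools and build named for the series include bcl2fastq, bedtools, Cell Ranger, Seurat and mm10. UMI counts per gene and cell are the deposited filtered matrix, whose file header names software version 3.0.0. The members, gene lists and words were chosen with earlier results of these data known.

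Peaks on chromosomes 1 to 19 and X were matched at an overlap of 1 bp or more by an interval search in Python 3.11.15 (numpy 2.4.6), which was checked against bedtools 2.31.1 on simulated intervals, and scores were ranked within each list. Genes are protein-coding genes of GENCODE M21, with promoters within 1 kb of a start and windows of the body with 10 kb on both sides. Consensus words (27, and 3 added later) were sought in the central 200 bp on both strands. Shares have 95% Wilson intervals, and UMI levels exact Poisson intervals, for counting error only. Barcodes with under 500 genes or over 10% of UMIs from mitochondria, 108 in all, were left out, and 72920197 UMIs remained. The kept cells were scaled to 10000 UMIs and clustered with scanpy 1.11.5 and Leiden 0.10.2 (2000 variable genes, 30 components, 15 neighbours, resolution 0.5). No doublet caller was run and no doublets were removed. Counts were then summed over cell groups, and a gene was called higher or lower at 2-fold with at least 10 CPM in 1 of the groups compared. With 1 list for each population and 1 cell library, no test and no p-value was possible.

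Genes and regions were named by a rule: the 10 regions with the highest value of the lower score percentile, the 15 genes with the most regions, the 10 densest genes with at least 4, members of the gene lists, and, among genes with at least 3 regions, the 10 with the highest and lowest ratios of M to C past 2-fold. Of the genes this rule names, 1 is not reported here. Calculations were checked on simulated data with known answers.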

Additional observations from a re-analysis of the deposited data

How the results depend on the processing

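Of the summary results under each alternative, 32 stayed within the limit set for the same value and 31 moved. Only the size of each value was scored, not the direction of a comparison. The number of regions was 3339 with 50% of the CD138 peak overlapped, 2035 with 50% of both peaks, 2801 from peaks above the median score of each list and 3781 from lists of equal number. The promoter share was 7.68% above the median score, 4.41% with no MRISC or CD34 SP peak within 500 bp, 9.20% at 2 kb and 11.8% with all transcript starts. AP-1 sites were in 9.78% with 50% of both peaks, 11.7% above the median and 15.4% in 400 bp, and CArG boxes in 2.16%, 2.50% and 2.85% in that order. The PU.1-type word was in 3.50% with 50% of the CD138 peak, 4.58% with lists of equal number, 3.52% with Myofibroblast peaks as regions and 6.07% in 400 bp. Genes with a region numbered 7219 at 50 kb, 2200 and 1430 with 50% of the CD138 peak and of both peaks, and 1947 above the median. The share of genes with a region that were higher in M was 25% at 1.5-fold (15.1% of all genes), 7.58% at 4-fold (3.18%), 20.8% at 50 CPM (9.21%), 17.3% at Leiden resolution 1 (8.94%) and 10.1% with 50 kb windows (7.53%), where the 2 shares are closest. It was 17.3% with 50% of the CD138 peak, 18.8% above the median and 18.1% with lists of equal number, each against 7.53%, and 13.7% with windows of at most 100 kb (6.50%). These last 4 and all alternatives for the PU.1-type word were chosen after seeing the data. For the gene lists, 73 counts moved by over 1.5 times and 127 did not. The S group held 1554 cells, against 2916 at resolution 0.3 and 1832 at resolution 1. The cause of these shifts was not tested, apart from wider windows and stricter overlaps, which change how much is counted. Leaving out a replicate could not be run, because each population has 1 list. No paired analysis was possible because no result comes from a test between samples.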
